A study of Homo sapiens with 5 samples.

Results

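The cytosolic chaperonin TRiC, also called CCT, is built from 8 related subunits, and the genes that encode them are TCP1 (alpha), CCT2 (beta), CCT3 (gamma), CCT4 (delta), CCT5 (epsilon), CCT6A (zeta), CCT7 (eta) and CCT8 (theta). All 8 genes were taken by name from the 64439 genes of the GENCODE annotation (20162 of them protein coding). In melanoma cells each of the 8 had a peak of the histone demethylase PHF8 within 1 kb of a transcription start site (TSS) in all 3 replicates. The same held for 25.7% of all annotated genes and for 60.2% of protein-coding genes. In every replicate each gene had a peak summit between 100 and 172 bp downstream of its main start site. Among protein-coding genes bound in all replicates, 47.4% had one at 100 to 200 bp, a range chosen after these positions were seen. Of the 8 genes, 6 had a strongest promoter peak above that of the median target gene in all replicates, against 41.1% of the bound protein-coding genes.

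The subunits of the chaperonin assemble into stacked rings around a chamber in which newly made proteins are folded with the use of ATP. Actin and tubulin are its best known clients, and the prefoldin complex hands them over. PHF8 carries a Jumonji C domain that removes methyl groups from histone tails and a PHD finger that binds histone H3 trimethylated at lysine 4, a mark of active promoters.

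PHF8 was mapped by chromatin immunoprecipitation followed by sequencing (ChIP-seq) in SKMEL-147 cells, a line established from human melanoma, to ask which genes it binds. The cells were fixed with paraformaldehyde, and sheared chromatin was precipitated with 1 anti-PHF8 antibody (Abcam ab36068) in 3 replicates, A, B1 and B2. There are 2 input chromatin libraries, A and B, which enter here only through the values the peak caller gave against them. The series also describes an sgRNA model of PHF8 loss in this line, but the labels of the ChIP samples give no genotype and no treatment (the deposited lists are marked scr, which the labels do not explain), so all 3 form 1 group and no conditions could be compared. Nothing in the labels says that the replicates came from separate cultures, so the spread between them may be technical. B1 and B2 share a letter with the single input B, so they may share that input and need not be as independent of each other as of A.

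Values given in threes follow the order A, B1, B2 throughout. The peaks numbered 21506, 20882 and 20120. Fold enrichment, the ratio of ChIP signal to the local background at the summit, ran on a higher scale in A, where the strongest promoter peak of the median target gene had a value of 32.4, against 18.8 and 17.7. A target gene is one with a promoter peak in all 3 replicates. For this reason each peak is also given as a percentile among the strongest promoter peaks of all target genes of the same replicate, on which the median target lies near 50. Read totals were not used here and library depth is unknown, but how many ChIP fragments each summit held could be recovered from the deposited values. The called peaks with the fewest fragments held 8, 8 and 10. Binding too weak to pass the cutoff of the caller, which also depends on the local background, is not in the lists.

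The sequence under the shared downstream summit differed between the 8 genes. Shown are the 30 bases of the hg19 reference around that summit in replicate A, read 5′ to 3′ along the strand of the gene, with each CpG in capitals.
TCP1 (chr6:160210495-160210524, minus strand): tCGaCGtgtatCGctgcCGtcaagatggag
CCT2 (chr12:69979350-69979379, plus strand): gctcttgccaccccactgcttcctctgtcc
CCT3 (chr1:156307918-156307947, minus strand): tcagtgagttctggggatgccaggaaatgg
CCT4 (chr2:62115627-62115656, minus strand): cagCGgagtttgccatgccCGagaatgtgg
CCT5 (chr5:10250520-10250549, plus strand): acCGcaagtccCGtcttatgggacttgagg
CCT6A (chr7:56119592-56119621, plus strand): ggCGgCGctggCGgtcaacatcagCGcagc
CCT7 (chr2:73461566-73461595, plus strand): ggCGcCGctCGgcctgggcttgctctgtag
CCT8 (chr21:30445836-30445865, minus strand): aggagggagCGaaagtaagggctgaaggaa
The CpG count in these 30 bases ran from 0 at CCT2 and CCT3 to 4 at TCP1 and CCT6A. At CCT4, CCT5 and CCT6A the summit lay in a coding exon of the main transcript. At CCT2, CCT3, CCT7 and CCT8 it lay in an intron, and at TCP1 in a UTR.

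A different set of sequences is of interest upstream, because 4 of the 8 genes share a divergent promoter with a protein-coding gene on the opposite strand. Shown for TCP1, CCT3 and CCT6A is a stretch of reference sequence upstream of the main TSS that no annotated UTR covers, with the matches to searched motifs described further on in capitals.
TCP1 (chr6:160210736-160210885, minus strand, -251 to -102 from the main TSS): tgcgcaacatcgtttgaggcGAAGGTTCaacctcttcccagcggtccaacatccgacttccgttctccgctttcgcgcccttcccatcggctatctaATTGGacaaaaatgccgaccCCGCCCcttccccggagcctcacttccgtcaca
CCT3 (chr1:156308097-156308246, minus strand, -163 to -14): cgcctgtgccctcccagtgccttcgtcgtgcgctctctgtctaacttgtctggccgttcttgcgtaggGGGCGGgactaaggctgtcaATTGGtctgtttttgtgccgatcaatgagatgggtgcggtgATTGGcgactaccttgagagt
CCT6A (chr7:56119298-56119377, plus strand, -160 to -81): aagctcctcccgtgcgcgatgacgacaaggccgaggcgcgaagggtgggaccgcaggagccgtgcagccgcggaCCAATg

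The strongest peaks of the 8 genes were described first by their strength. Fold enrichment ran from 15.4 to 65.8 over the 24 strongest peaks, and the median of the 8 genes was 51.0, 25.9 and 24.2. The median percentile was 87.8, 76.8 and 75.3, a mean of 80.0 ± 6.84 (SD, n = 3). The median of the mean percentile was 80.4 over the 8 genes and 53.0 over all protein-coding targets. It was 65.2 over the targets that share a divergent promoter with a protein-coding gene. All strongest peaks except those of CCT3 and CCT8 lay above the median target in every replicate, which makes 6 of 8 genes, against 41.1% of protein-coding targets. CCT7, CCT6A, CCT2 and CCT5 also stayed above the 75th percentile in every replicate, CCT5 only through an upstream peak shared with a neighbouring gene. The share of all targets that did so was not computed.

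CCT7, which encodes the eta subunit (ENSG00000135624, chr2:73460548-73480149, plus strand), had the highest mean percentile of the 8. Its fold enrichment of 58.4, 35.5 and 35.7 lay at percentiles 95.9, 95.2 and 96.7. The mean was 95.9 ± 0.770 (SD, n = 3), and the 3 values differed by less than those of any other subunit gene. The CCT7 summit held 149 fragments (95% exact Poisson interval 126 to 175), 125 (104 to 149) and 130 (109 to 154). These intervals cover counting error only. The peak was also wide, at 1460, 1482 and 1598 bp, against a median of 814, 712 and 663 bp over all targets.

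CCT6A, the zeta subunit gene (ENSG00000146731, chr7:56119378-56131682, plus strand), came next. Its peak reached a fold enrichment of 57.7, 31.4 and 28.6, and its percentiles of 95.4, 90.0 and 87.3 gave a mean of 90.9 ± 4.11 (SD, n = 3). The peak was of moderate width, 546, 710 and 567 bp. CCT6A was thus high in all 3 replicates with a peak narrower than that of the median target in each, though by only a little in B1.

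CCT2, the beta subunit gene (ENSG00000166226, chr12:69979206-69995350, plus strand), held the single highest value. This was a fold enrichment of 65.8 in A, at percentile 99.0. In B1 and B2 it reached 27.2 and 25.1, at percentiles 80.7 and 78.3. The mean percentile was 86.0 ± 11.3 (SD, n = 3). CCT2 was therefore much higher in A than in the other two replicates, which lay close together.

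CCT5, the epsilon subunit gene (ENSG00000150753, chr5:10250041-10266501, plus strand), had its strongest promoter peak on the upstream side. That peak had a fold enrichment of 44.7, 29.3 and 25.5, at percentiles 78.4, 85.8 and 79.7, with a mean of 81.3 ± 3.97 (SD, n = 3). It is shared with a neighbouring gene, ATPSCKMT. The peak over the CCT5 start itself was weaker, with 37.0, 21.8 and 19.7, at a mean percentile of 60.6 ± 1.74 (SD, n = 3). CCT5 was unlike the other 7 genes in that its highest summit was not the one downstream of its own main TSS.

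CCT4, the delta subunit gene (ENSG00000115484, chr2:62095220-62115806, minus strand), had a single promoter peak in each replicate. It showed 55.3-, 24.6- and 23.4-fold enrichment, with percentiles of 93.5, 72.9 and 72.4 and a mean of 79.6 ± 12.0 (SD, n = 3). TCP1, the alpha subunit gene from which the family takes its name (ENSG00000120438, chr6:160199530-160210735, minus strand), reached 46.8, 20.5 and 21.0. Its percentiles were 82.2, 57.3 and 63.3, a mean of 67.6 ± 13.0 (SD, n = 3). For both genes A stood above B1 and B2.

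The lowest places were held by CCT3 and CCT8, the gamma and theta subunit genes. CCT3 (ENSG00000163468, chr1:156278759-156337664, minus strand) reached 45.6, 15.4 and 18.0, with percentiles of 79.9, 36.9 and 50.8. Their spread was the widest of the 8 genes, with a mean of 55.9 ± 21.9 (SD, n = 3). The CCT3 summit held 137 fragments (115 to 162), 67 (51.9 to 85.1) and 81 (64.3 to 101). CCT8 (ENSG00000156261, chr21:30428126-30446118, minus strand) had 31.6, 16.1 and 16.5, at percentiles 48.0, 39.5 and 44.7, a mean of 44.1 ± 4.27 (SD, n = 3). CCT8 was the only subunit gene below the median target in all 3 replicates, and even there the summits held 94, 70 and 74 fragments.

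**Figure D1:**
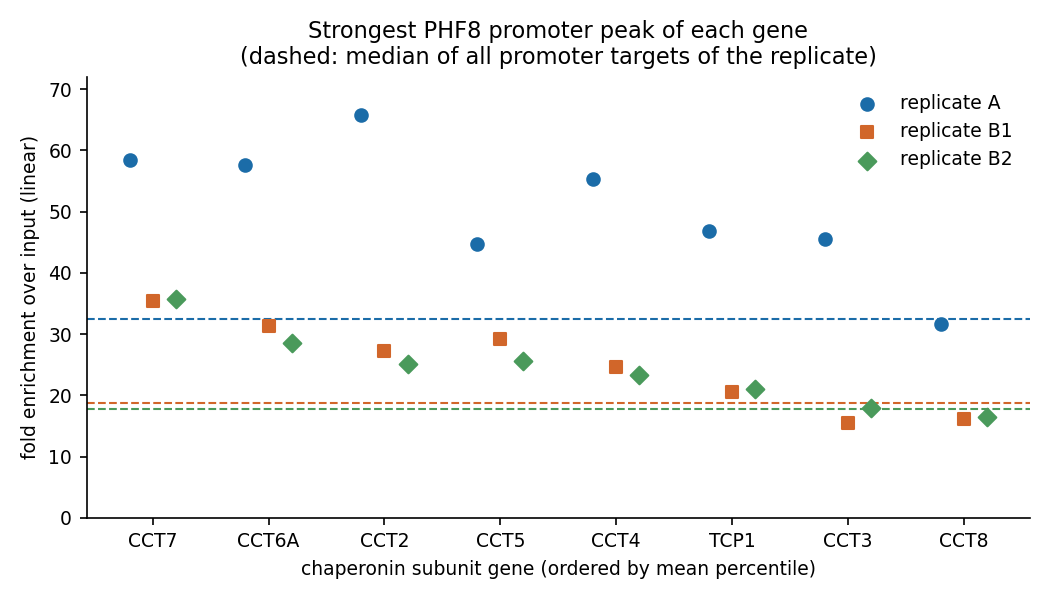
Fold enrichment over input (linear axis) of the strongest PHF8 promoter peak of each chaperonin subunit gene, 1 point per replicate, with dashed lines at the median of all promoter targets of A (32.4), B1 (18.8) and B2 (17.7). Replicate A lies above the others for every gene, and all genes but CCT3 and CCT8 lie above the dashed line of the replicate in all 3.

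Neighbours in the order of the 8 genes could not be told apart by a test. Each gene was compared with the next in order by flipping the signs of the within-replicate differences in percentile (exact permutation test, two-sided), which with 3 replicates cannot give a p below 0.25. The order was set on the same percentiles, and B1 and B2 may share an input, so the tests describe the spread only. The higher gene led in all 3 replicates for CCT7 over CCT6A (5.07 points, SD 4.45), CCT4 over TCP1 (12.0 points, SD 3.29) and TCP1 over CCT3 (11.8 points, SD 9.05), each with an exact permutation p of 0.25 and 0.583 after Benjamini-Hochberg adjustment over the 7 pairs. TCP1 over CCT3 turned to -4.08 points when recovered fragments were ranked in place of fold enrichment. The other 4 neighbours differed by less than the SD of their difference, with exact permutation p from 0.5 to 1. These were CCT6A over CCT2 (4.87 points, SD 7.38), CCT2 over CCT5 (4.73, SD 13.9), CCT5 over CCT4 (1.71, SD 14.8) and CCT3 over CCT8 (11.8, SD 17.9).

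**Figure D2:**
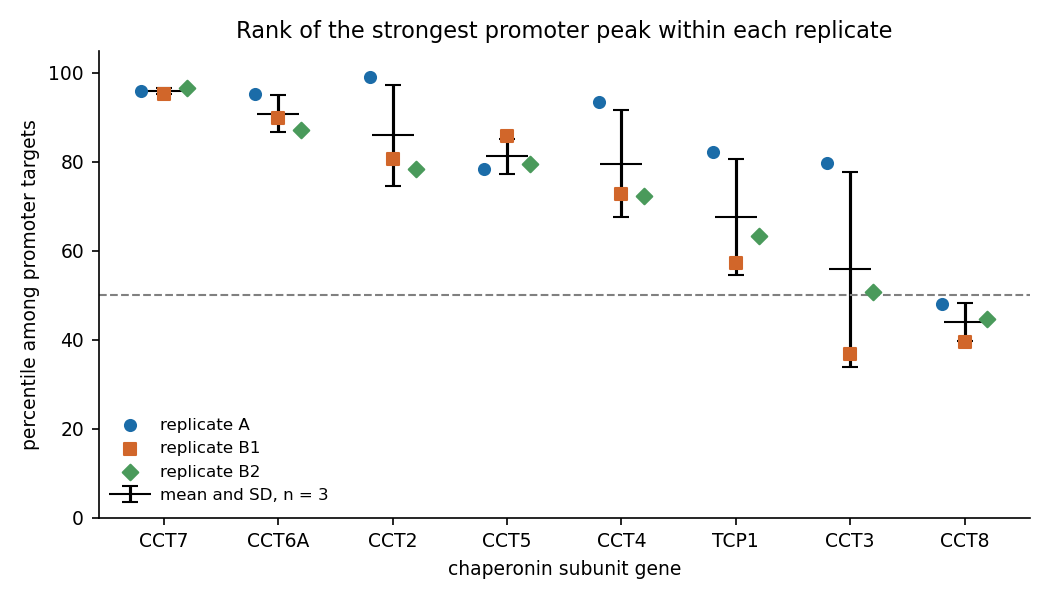
Percentile of the strongest promoter peak among all promoter targets of the same replicate, with the mean and SD over 3 replicates as bars and a dashed line at 50. CCT7 has the narrowest spread (SD 0.770) and CCT3 the widest (SD 21.9), and CCT8 lies below 50 in all 3 replicates.

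The order depended on the measure of strength. Ranked by recovered fragments at the summit in place of fold enrichment, CCT5 led with a mean percentile of 96.5 ± 1.41, followed by CCT7 with 94.5 ± 4.38 and CCT2 with 90.8 ± 4.22 (SD, n = 3). The upstream CCT5 summit held 167, 135 and 123 fragments, against 168, 104 and 100 at CCT2, so that CCT5 was the higher of the pair in B1 and B2. The local background against which the caller set them was higher at CCT5, with 2.76, 3.65 and 3.86 expected fragments, than at CCT2, with 1.57, 2.86 and 3.03. CCT8 stood at 58.2 ± 7.77 (SD, n = 3) on the fragment measure and was last of the 8 there too.

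Each gene had a summit at a similar place past its main start. Distances are given from the canonical TSS, the start of the main annotated transcript. The downstream summit lay at 145, 122 and 160 bp for CCT7, at 149, 128 and 169 bp for CCT6A and at 126, 154 and 125 bp for CCT2. It lay at 143, 158 and 132 bp for CCT5, at 150, 172 and 169 bp for CCT4 and at 125, 100 and 120 bp for TCP1. It lay at 151, 153 and 149 bp for CCT3 and at 119, 124 and 138 bp for CCT8. All 24 summits fell between 100 and 172 bp, and at CCT3 the replicates placed the summit within 4 bp of each other. A summit 100 to 200 bp downstream in all 3 replicates, a range chosen after these positions were seen, was found at 8 of 8 subunit genes and at 47.4% of protein-coding targets.

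The strongest summit itself was downstream of the canonical TSS in all replicates for 7 of 8 genes, CCT5 being the exception, against 61.8% of protein-coding targets. Measured from the nearest of all annotated start sites, it was downstream in all replicates for 5 of 8 (TCP1, CCT3, CCT6A, CCT7 and CCT8), against 54.9%. CCT2 and CCT4 moved to the upstream side on this measure, with summits 81, 53 and 82 bp and 48, 26 and 29 bp before an alternative start. The genes have between 4 (CCT4) and 15 (TCP1 and CCT3) annotated start sites each, so the nearest one is not the same transcript in each gene.

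Within these genes all PHF8 peaks lay in promoter windows, which surround every annotated start site, also those inside the gene. How often the same holds for other target genes was not counted. The body of each gene held 1 peak per replicate, or 2 at CCT3, and 0 of these lay outside the promoter windows. The windows themselves held 15, 15 and 16 peaks. At least 2 promoter peaks in all 3 replicates were present at TCP1, CCT3, CCT5, CCT6A and CCT7, which is 5 of 8 genes against 31.9% of protein-coding targets.

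**Figure D3:**
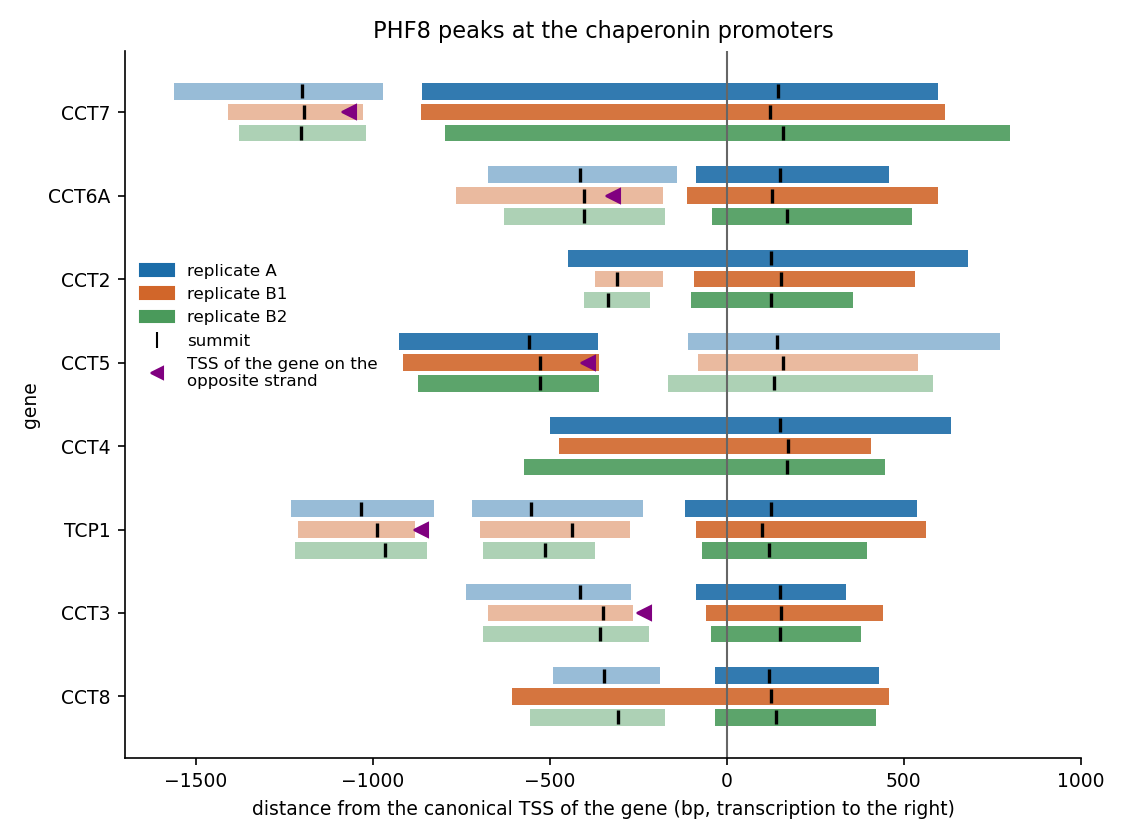
Promoter peaks (bars), summits (black ticks) and opposite-strand start sites (triangles) at each subunit gene by replicate, against distance from the canonical TSS in bp with transcription to the right; the full colour marks the strongest peak. Each gene has a summit 100 to 172 bp downstream of its TSS in all replicates, and at CCT5 the stronger peak is the one on the side of the opposite-strand gene.

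The second peaks lay mostly beyond the start of a gene transcribed the other way. A divergent partner was defined as a protein-coding gene on the opposite strand with its canonical TSS up to 1 kb upstream, and 4 subunit genes have one. TCP1 is paired with MRPL18, a protein of the mitochondrial ribosome, whose TSS lies 865 bp upstream. CCT3 is paired with TSACC, a co-chaperone of a testis kinase (234 bp), CCT5 with ATPSCKMT, a lysine methyltransferase acting on ATP synthase (392 bp), and CCT6A with PSPH, phosphoserine phosphatase of serine synthesis (321 bp). All 4 pairs were bound, as were 95.7% of protein-coding genes with such a partner. Of all protein-coding targets 14.9% had such a partner, a share that was not tested against the 4 of 8.

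Each of the 4 divergent promoters carried a summit on both sides of the canonical TSS within 1 kb in all 3 replicates, counting CCT5, CCT6A, CCT3 and TCP1. This count was also chosen after the peaks were seen. It held for 19.6% of all protein-coding targets and for 30.2% of the 1804 with a divergent partner. At TCP1 the upstream summit within 1 kb belonged to a peak between the genes, and in B1 and B2 also to the one at MRPL18.

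The upstream summit also lay downstream of the start of the partner. It was 168, 137 and 136 bp past the ATPSCKMT TSS at CCT5, and 95, 83 and 83 bp past the PSPH TSS at CCT6A. At CCT3 it was 180, 116 and 124 bp past the TSACC TSS, and at TCP1 it was 169, 124 and 101 bp past the MRPL18 TSS. CCT7 has a similar arrangement over a longer distance, with PRADC1, a gene named for its protease-associated domain, starting 1069 bp upstream and a summit 132, 126 and 134 bp past that start. On the partner's side the summits were thus at distances like those on the side of the subunit gene, apart from the shorter ones at PSPH.

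The summits on the 2 sides of these promoters differed in fold enrichment. The strongest promoter peak lay in the windows of both genes, so subunit gene and partner had the same mean percentile. It was 67.6 for MRPL18, 55.9 for TSACC, 81.3 for ATPSCKMT, 90.9 for PSPH and 95.9 for PRADC1. The ratios below therefore compare summits and not genes. At CCT6A the downstream summit had 1.89 ± 0.0604 times the fold enrichment of the upstream one (SD, n = 3), from 30.8, 16.0 and 15.6 on the PSPH side. At CCT7 the ratio was 1.90 ± 0.188, from 34.7, 18.1 and 17.5 on the PRADC1 side, and at TCP1 it was 1.95 ± 0.356, from 22.2, 13.3 and 9.53 on the MRPL18 side. CCT3 had the largest ratio of these, 2.85 ± 1.13, from 11.0, 6.76 and 8.56 on the TSACC side. The direction was turned at CCT5, where the ratio was 0.781 ± 0.0423 and the ATPSCKMT side was the stronger in all 3 replicates. Each of the 5 departures from equality was larger than the SD of its ratio, but with 3 replicates no exact test could fall below 0.25.

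The remaining upstream peaks were smaller or variable. The additional TCP1 peak between the 2 genes lay 553, 438 and 513 bp upstream of its TSS, at 20.3, 9.89 and 9.20. CCT8 had a peak 346 bp upstream in A and 309 bp upstream in B2, with 26.9 and 12.2, while in B1 a single peak of 1065 bp covered both positions. CCT2 had a faint one in B1 and B2 only, 310 and 337 bp upstream, at 4.22 and 4.99 on 14 and 16 fragments (95% exact Poisson intervals 7.65 to 23.5 and 9.15 to 26.0). In A the main CCT2 peak was 1129 bp wide and covered that position without a summit of its own there. CCT4 had none, and its 1 peak also served an alternative start of COMMD1, a regulator of copper handling and protein turnover, on the opposite strand. The CCT2 peak lay in the windows of the miRNA gene MIR3913-2 as well. Near an alternative start of CCT8 the long noncoding RNA gene ENSG00000286018 begins on the opposite strand. Its canonical TSS lies 10202 bp downstream of that of CCT8, and it was not bound in all 3 replicates.

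The base composition of the 8 promoters was described next. All 8 were CpG-island-like, meaning that within 250 bp of the canonical TSS at least 50% of bases were G or C and CpG occurred at 0.6 or more of its expected frequency (the CpG ratio). The same held for 67.0% of protein-coding genes and for 90.2% of protein-coding targets. Conversely, 81.0% of protein-coding genes with such a promoter were bound in all replicates. In the window from 250 bp before to 50 bp after the TSS, GC ran from 50.7% at CCT5 to 72.3% at CCT6A, and the CpG ratio from 0.806 at CCT8 to 1.13 at CCT4. The medians over bound protein-coding promoters were 66.7% and 0.866. In the 300 bp around the strongest summit of replicate A the CpG ratio was lowest at CCT3, 0.539, and CCT2, 0.651, against a median of 0.836 over all targets. CCT2 and CCT3 are the genes whose printed 30 bases hold no CpG, and CCT2 had the higher percentile of the pair in all 3 replicates.

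Short motifs were searched on both strands of the same promoter window, and a match is a description of the letters only. The paired half-sites of the heat shock element, GAANNTTC or TTCNNGAA, were present at TCP1, CCT4, CCT5 and CCT6A, 4 of 8, against 11.1% of all protein-coding promoters and 8.95% of bound ones. In the printed sequences the match is in capitals at -231 of TCP1. CCAAT was present at TCP1, CCT2, CCT3, CCT6A and CCT8 (35.9% of all promoters), and appears above as ATTGG where it is on the other strand. GGGCGG, the core bound by SP and KLF factors, was present at TCP1, CCT2, CCT3, CCT7 and CCT8 (60.9%). The NRF1 motif was present at CCT3 and CCT5 (8.35%), while the ETS core CCGGAAG was matched once, in the promoter of CCT2 (14.0%).

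No member matched CACGTG, the E-box (8.73% of promoters), AANATGGC, the YY1 core (8.08%), TATAAA (9.78%), the cyclic AMP element TGACGTCA (2.69%) or the palindrome of ZBTB33 and BANP (0.625%). Around the strongest summit, the heat shock form GAANNTTC was found at CCT3, CCT4 and CCT8 (3.37% of targets) and TTCNNGAA at CCT4 and CCT8 (4.52%). These 2 forms can overlap by 3 letters. With 8 genes these counts were not tested.

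Other genes of the folding pathway were taken from lists of 61 genes in all, of which 54 (88.5%) were bound in all 3 replicates, against 60.2% of protein-coding genes, with a median percentile of 67.4. Among the cochaperones, all 6 prefoldin genes were bound with a median of 38.9 and a range of 23.5 to 81.4, 3 of them above 50: PFDN4 (81.4), PFDN2 (61.6) and PFDN5 (50.7). The 3 prefoldin-like genes had a median of 77.4, with URI1 at 84.7, PDRG1 at 77.4 and UXT at 30.3. Of the phosducin-like and thioredoxin-like cofactors, which modulate the chaperonin, TXNDC9 (87.4), PDCL (82.6) and PDCL3 (66.9) were bound and PDCL2 had no peak. The 8 subunit genes, with a mean percentile between 44.1 and 95.9, thus overlapped the range of prefoldin, 23.5 to 81.4.

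The clients of the chaperonin divided. Among tubulins 10 of 12 genes were bound, 7 of them above 50, with a median of 82.1 and a range of 6.03 to 94.5, led by TUBG1 (94.5), TUBA1B (93.6) and TUBA1C (92.1). TUBB4A had no peak, and TUBA4A had one in replicate A alone, with a fold enrichment of 5.99. Among actins 3 of 6 were bound, the cytoplasmic ACTG1 (58.3) and ACTB (52.9) and the smooth muscle ACTA2 (8.21), while the muscle genes ACTA1, ACTC1 and ACTG2 had none. The 4 other clients were bound at 36.1 to 89.6, among them VHL, a ubiquitin ligase subunit (89.6), and FZR1 (81.1) and CDC20 (57.7), activators of the anaphase-promoting complex. The 5 tubulin cofactors, which act on tubulin after its release, had a median of 74.4 and a lowest value of 49.2, with TBCC at 83.2, TBCE at 79.1 and TBCB at 74.4.

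The other chaperonins and the heat shock genes were bound throughout, apart from 1 paralog. Both mitochondrial chaperonin genes were targets, HSPD1 at 80.4 and HSPE1 at 63.9. In A both had the same fold enrichment of 42.9, so they may share a peak there. The chaperonin-like Bardet-Biedl genes MKKS (59.6), BBS10 (53.4) and BBS12 (5.20) were targets as well. All 14 heat shock regulators and chaperones were bound with a median of 67.8 and a range of 12.6 to 93.7, and HSP90AA1 (93.7), DNAJB1 (93.5) and STIP1 (92.7) led them. CCT6B, the paralog of CCT6A used mainly in testis, was bound at a mean percentile of 68.6. That value came from a peak 19443, 19423 and 19469 bp upstream of its canonical TSS, and not from the weaker peak at that TSS. The paralog CCT8L2 had no peak.

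**Figure D4:**
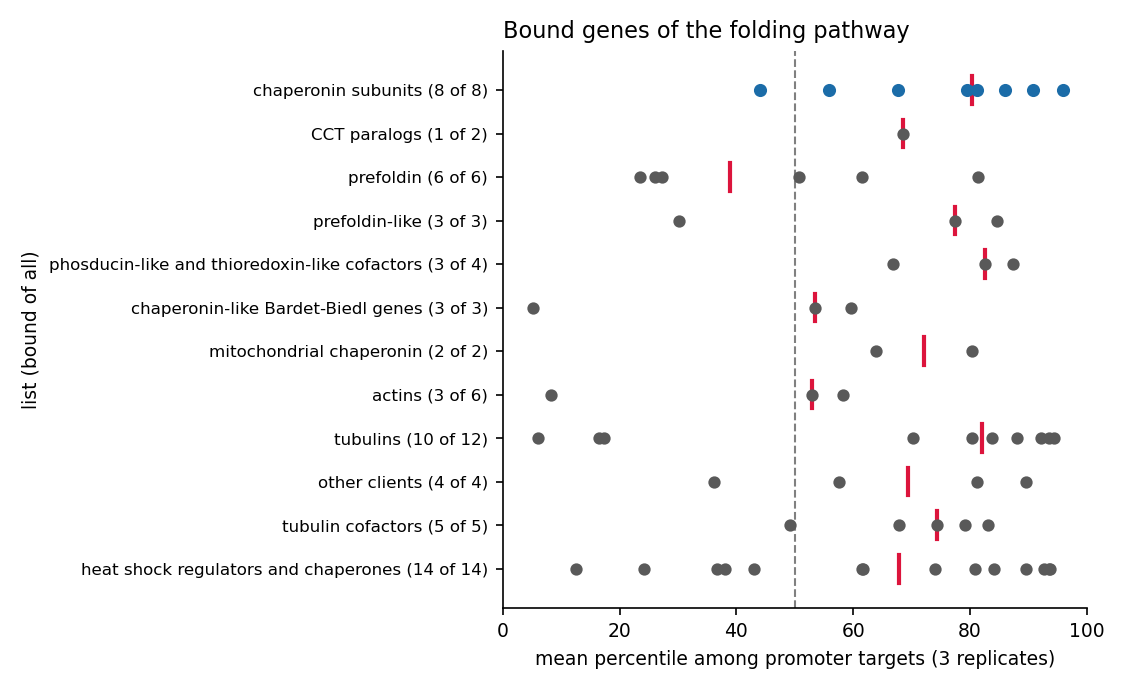
Mean percentile over 3 replicates of each bound gene, by list, with the median of the list as a red bar, the number bound of all in brackets and a dashed line at 50. The 8 subunit genes (blue) span 44.1 to 95.9, and the prefoldin median of 38.9 is the lowest among the lists.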

How the data were processed

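PHF8 ChIP-seq peak lists of 3 replicates of SKMEL-147 cells were analysed. According to labels and methods, the authors mapped reads on hg19 (Bowtie2, default settings). Narrow peaks were called with MACS against input, 1 replicate at a time. The submitters' processing notes also name Picard and bcl2fastq. A supplementary legend names MACS2. Its release and the handling of duplicates are not given in the sources used here. The deposited fold enrichment is a linear ratio over the local background. The deposited p-value and q-value are −log10 values, while the deposited score restates the q-value and was only checked against it. The q cutoff of the study was read as below 0.05, and every listed peak passed it. The deposited lists of 3 files hold no other per-sample columns.

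Promoters spanned 1 kb to each side of any TSS in GENCODE v44lift37, on the GRCh37 (hg19) build, and 0 peaks exceeded a chromosome. A gene was bound when a peak overlapped a window by at least 1 bp in all 3 replicates. Percentiles rank the strongest promoter peak of a gene among all targets of a replicate. Fragments at a summit were solved from the fold enrichment and the p-value under a Poisson law, as the best matching whole number. That number gave the deposited −log10 p-value within 0.001 for 100% of peaks in each replicate. It was also recovered for 100% of peaks simulated under the same law, which checks the calculation only. Intervals are 95% exact Poisson intervals. Total depth is unknown. Neighbours in the order were compared by exact sign-flip permutation tests with Benjamini-Hochberg adjustment, and the remaining shares are descriptions.

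The text names the 8 subunit genes, the genes that share their peaks or start within 1 kb on the other strand, at most the 3 highest bound genes of each related list, and all unbound genes. The members, lists and motifs were chosen with earlier results of these data known. Sequence was read from GRCh37. 1 further sequence is not reported here. Alternatives were stricter q-value and fold enrichment cutoffs, lists of equal size, windows of 2 kb or 500 bp, summits required inside the window, a single TSS for each gene, other measures of strength, other reference sets, and leaving out each replicate. Python 3.11.15, numpy 2.4.6, pandas 2.3.3, scipy 1.17.1, edlib 1.3.9.post1 and matplotlib 3.10.9 were used.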

Additional observations from a re-analysis of the deposited data

How the results depend on the processing

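All 8 subunit genes were bound under every setting run except a fold enrichment above 20, which 6 passed. The median percentile went from 80.0 over 8 genes to 61.8 ± 21.3 (SD, n = 3) over the 6 left, ranked among the targets that passed. That cutoff also reduced the related genes bound from 54 to 30. It reduced the genes with a downstream strongest summit from 5 to 3 and those with a summit 100 to 200 bp downstream from 8 to 5. It left 0 genes with a summit on each side of the TSS, against 4, and a fold enrichment above 10 left 2; weaker peaks fail such a cutoff by construction. Leaving out 1 replicate gave medians from 76.1 to 82.5 and 4 or 5 genes with a summit on each side. The differences between some neighbours turned in sign. CCT6A minus CCT2 became -3.58 percentile points with p-values and -8.66 with recovered fragments, CCT2 minus CCT5 became -3.64 and -5.66, and TCP1 minus CCT3 became -4.08 with fragments. The cause was not tested. Of 118 percentiles of single genes recomputed under an alternative, 16 moved by more than 1 SD. The settings for the 2 summit counts were added after the data were seen. No paired comparison of conditions was possible because the samples form 1 group of ChIP replicates and the inputs have no values of their own here.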

Other observations

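Copies of the subunit genes elsewhere in the genome were listed after the peaks of the 8 genes had been seen. Of 16 annotated records named as pseudogenes of the family, 1 of which is typed as a long noncoding RNA, 2 had a promoter peak in all 3 replicates, against 25.7% of all annotated genes. Both bear the CCT6 name. CCT6P1, an unprocessed copy on chromosome 7, had a strongest peak of 26.1, 14.0 and 15.1 in fold enrichment (A, B1, B2). These lay below the 57.7, 31.4 and 28.6 at CCT6A. The CCT6P1 summit was at 59 bp from the nearest start in A but at -334 and -355 bp, before the start, in B1 and B2. The 300 bp around the CCT6A summit are 85.7% identical to the best match in or within 1 kb of the CCT6P1 peak of A. That match need not lie under the peaks of B1 and B2. How reads that match both loci were placed is not given in the sources used here, so the values of both are uncertain to that degree. A long noncoding record of CCT6P3, also on chromosome 7, had 26.9, 14.7 and 15.4, and its best match was 58.0% identical. The same search at the strongest peak of CCT6B, far from its canonical TSS, gave 56.3%. The 58.0% is thus not evidence of a copy of the CCT6A summit sequence at that peak.

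The paralog CCT6B had its strongest peak, 35.9, 21.7 and 27.5, at an alternative start 19443, 19423 and 19469 bp upstream of its canonical TSS. The mean percentile of 68.6 given above is that of this distant peak. At the canonical TSS, which lies 80 bp from that of the opposite-strand gene ZNF830, CCT6B had a peak with 22.8, 19.4 and 17.7. Its summit lay 149, 132 and 159 bp downstream, and no percentile was computed for it. That position lies within the range of 100 to 172 bp measured at the 8 subunit genes.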
